A study of Rattus norvegicus with 2 samples.

Results

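The genes described here are antiviral effectors and sensors that interferon can switch on, measured in primary heart muscle cells of neonatal SD rats. Such primary cultures can also hold other cells of the heart. The list names 39 genes, and 38 of them had a transcript cluster carrying their symbol alone on the array, among 22093 genes with such a cluster. A cluster is the set of probes that reports 1 transcript locus. Where a gene had several clusters, the one with the highest mean log2 value was used, which applied to Sp100 alone. Of the groups, 1 received lipopolysaccharide (LPS), the bacterial membrane component that activates Toll-like receptor 4, at 100 ng/mL and the other received vehicle. RNA of both was taken 24 h after treatment, and each group was hybridised to 1 array. The labels name no genetic change in either group, and do not say whether an array carries RNA of 1 culture or of a pool.

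Interferons are secreted in response to infection and bind receptors that activate the JAK kinases and, through them, the factor ISGF3, which contains STAT2 and IRF9. ISGF3 binds interferon-stimulated response elements (ISREs) in the promoters of target genes. Their products detect foreign RNA in the cytosol, degrade or hide it, tag proteins with the ubiquitin-like ISG15, or block virus entry, copying and release. Many of the same genes can also be induced directly by interferon regulatory factors that pathogen receptors activate. Toll-like receptor 4 is 1 such receptor.

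The promoter sequences of 7 members are shown first, because the ISRE core is the element these genes are known for and the members with large and small differences can be set side by side. RefSeq promoter windows of the assembly GRCr8, each covering 250 bases before the annotated gene start and 50 from it on, were at hand for 29 members. The windows printed are 80 bases long, end before the gene start and are written 5′ to 3′ on the strand of the gene, with each ISRE core in capitals. Bst2 lies at chr16:18255068-18255147 (minus strand), Oas1a at chr12:41330376-41330455 (plus strand) and Oas1b at chr12:41395881-41395960 (minus strand). Ddx60 lies at chr16:33208854-33208933 (minus strand) and Ifit3 at chr1:241527227-241527306 (plus strand). Oas3 lies at chr12:41439582-41439661 (plus strand) and Oasl at chr12:47356293-47356372 (minus strand).
Bst2: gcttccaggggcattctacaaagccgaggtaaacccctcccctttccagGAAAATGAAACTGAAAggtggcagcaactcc
Oas1a: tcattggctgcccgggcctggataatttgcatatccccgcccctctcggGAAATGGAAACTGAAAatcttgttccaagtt
Oas1b: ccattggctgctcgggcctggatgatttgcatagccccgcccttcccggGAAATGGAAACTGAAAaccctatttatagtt
Ddx60: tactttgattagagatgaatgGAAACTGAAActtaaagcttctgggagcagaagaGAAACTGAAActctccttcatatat
Ifit3: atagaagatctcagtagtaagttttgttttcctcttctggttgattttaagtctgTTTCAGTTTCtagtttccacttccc
Oas3: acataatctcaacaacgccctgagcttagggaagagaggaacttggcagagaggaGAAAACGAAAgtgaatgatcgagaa
Oasl: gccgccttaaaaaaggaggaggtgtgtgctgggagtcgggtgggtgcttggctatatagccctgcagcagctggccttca

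The core searched was GAAANNGAAA on both strands. In Bst2, Oas1a and Oas1b a pair of cores overlapped, Ddx60 had a pair apart from each other, and the core of Ifit3 was on the opposite strand. The Oas1a and Oas1b windows, which stand at the same place relative to their cores, had 68 of 80 bases equal (85.0%). Oas3 carried 1 core although its intensity differed little between the arrays, and Oasl carried none although its fold was the largest among the members. Over all members with a window, 18 of 29 (62.1%) held at least 1 core, compared with 1131 of 27457 genes in the promoter table (4.12%). The list was drawn up from genes known to answer to interferon, so this share describes the list and not the effect of LPS. Of the 18, 17 had a core before the gene start, and in Dtx3l the match lay 11 bases into the transcript. The 18 members with a core had a median log2 difference (LPS minus vehicle) of 2.38, with a range of 0.13 to 4.16, and 16 of them were at least 2-fold higher. The 11 without a core had a median of 1.88, with a range of 0.30 to 6.37, and 8 of them were at least 2-fold higher. The ranges of the members with and without a core overlap. These medians and counts use the values as deposited. With intensities under 236 first set to 236, Ifit3, Ifi44l, Oas1a, Ddx60 and Xaf1, which have a core, were no longer 2-fold higher. Among the members without a core, Uba7 was lost in the same way. Medians of the groups were not taken with low values raised, so their order is not read as a result.

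The GAS element, known from promoters that answer to interferon gamma, was searched as TTCNNNGAA and was found in 6 of 29 member windows (20.7%), against 9.39% of all genes. In Bst2 it overlapped an ISRE core. The κB element of the NF-κB factors was found in 4 of 29 windows (13.8%), against 8.16% of all genes. The 4 were Oasl, Dtx3l, Oas3 and Ifi35, which spanned nearly the whole range of differences.

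**Figure D1:**
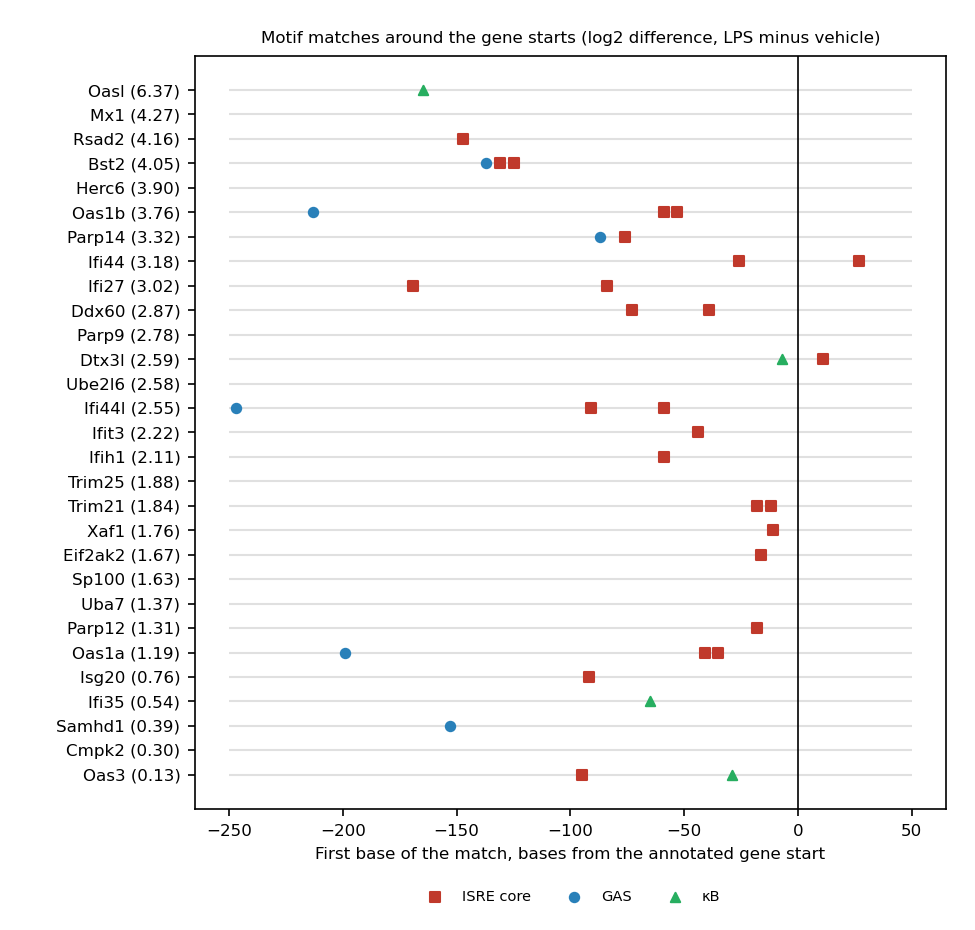
Positions of ISRE core, GAS and κB matches around the annotated start of 29 members, ordered by log2 difference (LPS minus vehicle, in brackets). The x axis gives the leftmost base of each match in bases from the gene start. In 17 members at least 1 core lies before the start, and members with and without a core are mixed along the order of differences.

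Nearly all members were higher with LPS in the values as deposited. Of the 38 measured, 37 were higher, 0 were lower and 1, Rtp4, had identical values on both arrays. Among the 14420 genes above the floor, defined below, 3228 were higher, 4568 lower and 6624 identical. At least 2-fold higher were 30 of 38, while 3.69% of the 14420 genes above the floor were. The floor is the median level of all clusters, an intensity of 49.3, which the higher of a gene's 2 values had to reach. No member was at least 2-fold lower, against 2.63% of genes. At least 4-fold higher were 21 members, against 1.64% of genes, and at least 10-fold higher were 8, against 0.603%. At least 1.5-fold higher were 32, against 6.05%. The median log2 difference of the members was 2.29, a fold of 4.90, and that of all genes above the floor was 0, where 45.9% had identical values. With 1 array per group there is no spread between samples, no test was possible, and every fold describes these 2 arrays.

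All 38 members with a cluster passed the floor. The vehicle values of 6 members lay below it, so that these entered through their LPS value. Without the floor the counts of members are the same, and 2.41% of all 22093 genes were at least 2-fold higher. A fold over a low vehicle value is uncertain, because little of a low intensity may come from the transcript itself. A second value, the raised fold, is therefore given where it moves a fold by over 1.5 times or ends a 2-fold count, and for it every intensity under 236, the 75th percentile of cluster levels, was first set to that level. By raised fold, 31 of 38 members were higher by any amount and 0 lower, since members with both values under 236 become equal. At least 2-fold higher by raised fold were 22 of 38, against 3.03% of the genes above the floor. At least 10-fold higher by raised fold were 4 members, Mx2, Oasl, Bst2 and Herc6, against 0.465% of those genes. The 8 members that were 2-fold higher as deposited and not by raised fold were Ifit1, Ifit3, Ifi44l, Oas1a, Oas2, Ddx60, Xaf1 and Uba7.

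**Figure D2:**
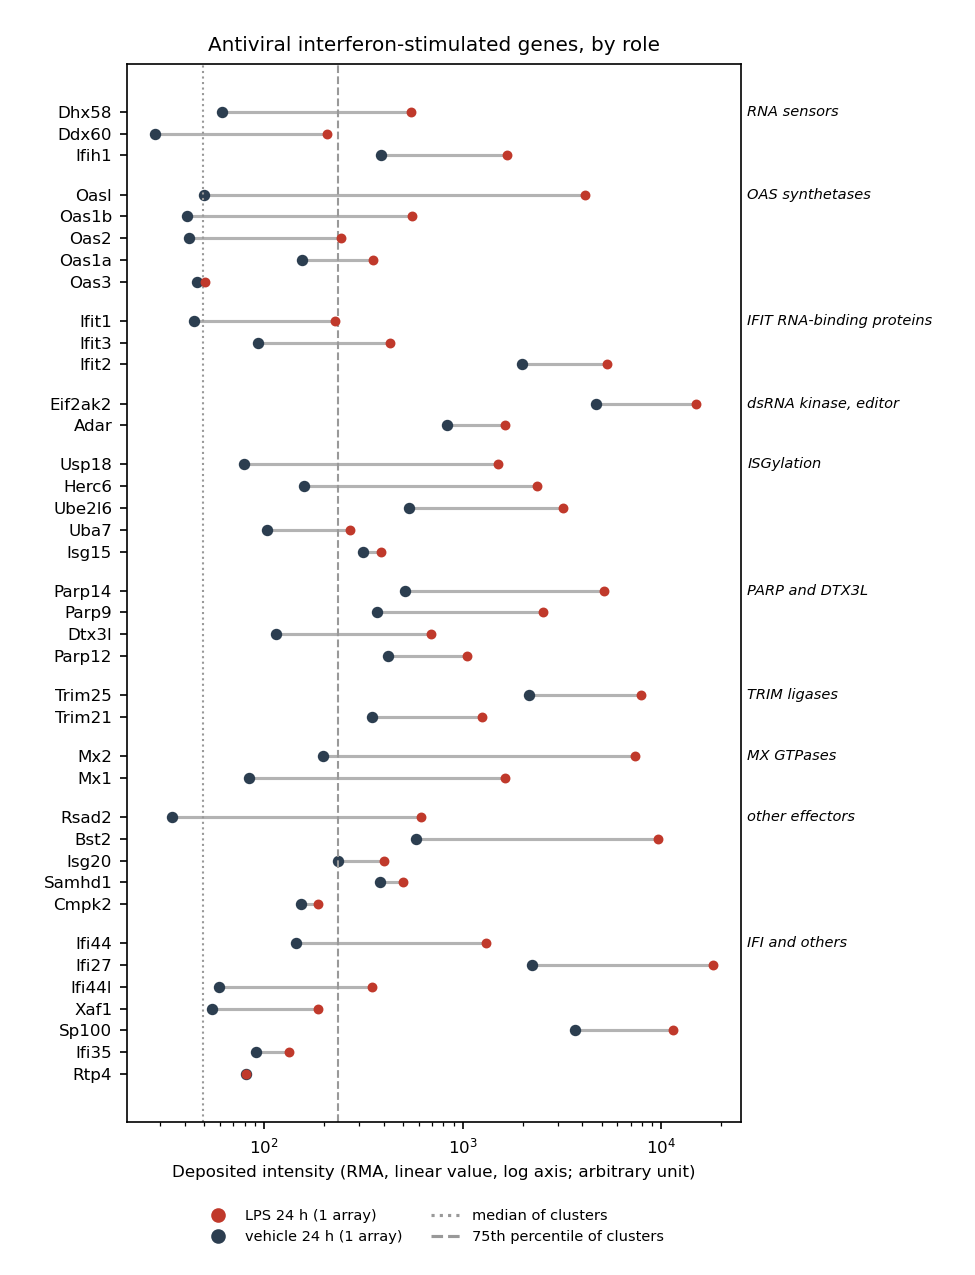
Deposited intensity of each member on the LPS array (red) and the vehicle array (dark), on a log axis in arbitrary units, grouped by role. Points stand for 1 array each and lines join the values of a gene. Red points lie right of dark ones for 37 of 38 members, the dotted line marks the floor of 49.3 and the dashed line the level of 236.

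**Figure D3:**
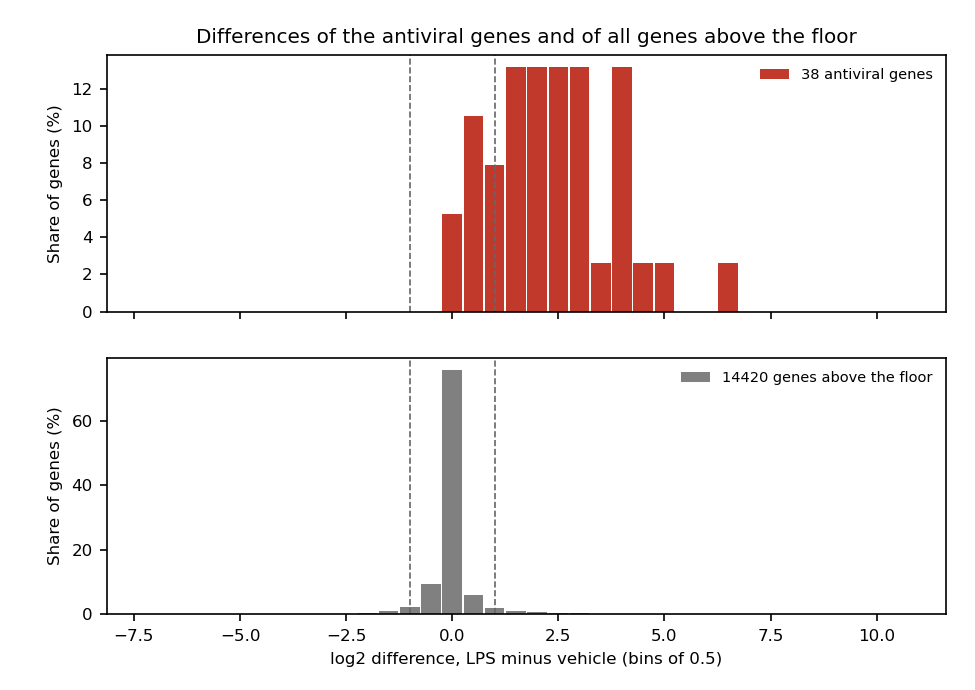
Shares of the 38 members (top) and of the 14420 genes above the floor (bottom) by log2 difference, LPS minus vehicle, in bins of 0.5. Dashed lines mark 2-fold differences. The members lie between 0 and 6.37, while most genes lie in the bin around 0.

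The cytosolic RNA sensors were higher as a group, with 3 of 3 measured members at least 4-fold higher and a median log2 difference of 2.87. Ifih1, which encodes MDA5, the sensor of long double-stranded RNA, had an intensity of 1668 with LPS and 387 with vehicle, 4.31-fold higher. Dhx58 encodes LGP2, a helicase of the same family without the signalling domain. It had 552 with LPS and 61.8 with vehicle, 8.93-fold higher (raised fold 2.34.) Ddx60, a helicase linked to RIG-I signalling, had 207 with LPS and 28.2 with vehicle, 7.33-fold higher. Both Ddx60 values were under 236, so its raised fold was 1.0. No cluster carried the symbol Ddx58, the gene of RIG-I. The cluster labelled Rig1 has Entrez ID 297989, for which RefSeq lists Ddx58 as a synonym, and it had 5364 with LPS and 805 with vehicle, 6.66-fold higher. It is not counted among the 38.

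The oligoadenylate synthetases (OAS) make a second messenger on double-stranded RNA that activates RNase L. Of the 5, 4 were at least 2-fold higher, and the median log2 difference was 2.54. The family held the largest difference of the list and, apart from the identical Rtp4, the smallest. Oasl, a family member whose human form lacks synthetase activity and carries ubiquitin-like domains, had 4125 with LPS and 50 with vehicle, 82.5-fold higher (raised fold 17.5.) Oas1b had 555 with LPS and 40.9 with vehicle, 13.6-fold higher (raised fold 2.35.) Its paralog Oas1a had 355 with LPS and 156 with vehicle, 2.28-fold higher (raised fold 1.5.) The 2 genes are close copies, and probes could share signal between them. Oas2 had 244 with LPS and 42.1 with vehicle, 5.80-fold higher (raised fold 1.03.) Oas3 had 50.3 with LPS and 46 with vehicle, 1.09-fold higher, and so stayed near the floor on both arrays.

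The IFIT proteins bind viral RNA that lacks the host's cap marks and block its translation. All 3 were at least 2-fold higher, with a median log2 difference of 2.22. Ifit2 had 5347 with LPS and 1997 with vehicle, 2.68-fold higher, and it is the member of the family whose values were above 236 on both arrays. Ifit3 had 433 with LPS and 93.2 with vehicle, 4.65-fold higher (raised fold 1.84.) Ifit1 had 229 with LPS and 44.4 with vehicle, 5.15-fold higher, but both values were under 236 and the raised fold was 1.0. The IFIT fold was largest where the values were lowest.

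Of the remaining proteins that act on double-stranded RNA, the kinase gene Eif2ak2 (PKR), which halts translation, had 14999 with LPS and 4711 with vehicle, 3.18-fold higher. Adar, which edits adenosines in double-stranded RNA and thereby limits its detection, had 1636 with LPS and 837 with vehicle, 1.96-fold higher. Adar is the member just under the 2-fold size, and Oas1a, at 2.28-fold, is the one just over it. Both Eif2ak2 and Adar were above 236 on both arrays.

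In ISGylation, the tagging of proteins with ISG15, 3 of the 4 enzymes differed more than the tag whether or not low values were raised, and the fourth, Uba7, did so as deposited but not by raised fold. Isg15 itself, the ubiquitin-like modifier, had 386 with LPS and 315 with vehicle, 1.23-fold higher. Uba7, its activating enzyme, had 271 with LPS and 104 with vehicle, 2.59-fold higher (raised fold 1.15.) Ube2l6, its conjugating enzyme, had 3209 with LPS and 539 with vehicle, 5.96-fold higher. Herc6, the main ISG15 ligase in mouse, had 2375 with LPS and 159 with vehicle, 14.9-fold higher (raised fold 10.1.) Usp18, which removes ISG15 and also restrains the type I interferon receptor, had 1508 with LPS and 79.3 with vehicle, 19.0-fold higher (raised fold 6.39.) So 4 of 5 genes of the system were at least 2-fold higher, with a median log2 difference of 2.58. By raised fold 3 of 5 were, without Isg15 and Uba7. Of 5 genes of the wider ubiquitin system with a cluster, 0 were at least 2-fold higher, against 3.69% of genes above the floor. For 5 genes a count of 0 is near that share and is not read as a result. Of the 5, Uba1 was at a log2 difference of -0.20 and Arih1 at -0.04. Ube2e1, Herc3 and Herc4 had identical values, which is not a measured lack of difference.

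Mono-ADP-ribosyltransferases of the PARP family and the ubiquitin ligase gene Dtx3l, whose product pairs with PARP9, were at least 2-fold higher in 4 of 4 cases, with a median log2 difference of 2.68. Parp14 had 5115 with LPS and 514 with vehicle, 9.95-fold higher. Parp9 had 2537 with LPS and 371 with vehicle, 6.85-fold higher. Dtx3l had 689 with LPS and 115 with vehicle, 6.01-fold higher (raised fold 2.92.) These 3 genes follow each other along the chromosome in RefSeq, with no protein-coding gene between them. Parp12, another member of the family, had 1047 with LPS and 422 with vehicle, 2.48-fold higher, and was under 2-fold when 236 was added to both values. Of 11 other PARP family genes, 0 were at least 2-fold different in either direction. Among all genes above the floor, 3.69% were higher and 2.63% lower by that size. For 11 genes a count of 0 is near these shares and is not read as a result about the family. The largest of the 11 were Zc3hav1, the antiviral zinc finger protein ZAP, at 1.76-fold, Parp3 at 1.69-fold, Parp11 at 1.60-fold and Parp8 at 1.4-fold higher.

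The tripartite motif (TRIM) ubiquitin ligases on the list were close to each other in fold, with a median log2 difference of 1.86. Trim25, which ubiquitinates RIG-I and can also act as an ISG15 ligase, had 7893 with LPS and 2149 with vehicle, 3.67-fold higher. Trim21, a cytosolic antibody receptor, had 1258 with LPS and 351 with vehicle, 3.58-fold higher. Of 13 other TRIM genes with a cluster, 1 was at least 2-fold higher, Trim2 at 2.53-fold, against 2.41% of all genes with a cluster. A count of 1 among 13 genes is too small to be told apart from that share. Trim5 was 1.68-fold higher, Trim28 was at a log2 difference of -0.47 and Trim27 at -0.23.

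The dynamin-like MX GTPases, which trap viral nucleocapsids, showed large differences in both genes, with a median log2 difference of 4.74. Mx2 had 7375 with LPS and 198 with vehicle, 37.3-fold higher (raised fold 31.2), and no member had a larger raised fold. Mx1 had 1625 with LPS and 84.4 with vehicle, 19.2-fold higher (raised fold 6.88.) In the rat Mx1 acts in the nucleus and Mx2 in the cytoplasm. The genes are paralogs, and shared probe signal was not tested.

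Among the effectors that act on nucleotides, nucleic acids and membranes, 2 of 5 were at least 2-fold higher, with a median log2 difference of 0.76. Bst2 (tetherin), which holds budding virions at the cell surface, had 9575 with LPS and 579 with vehicle, 16.5-fold higher. Rsad2 (viperin), which makes a chain-terminating nucleotide, had 616 with LPS and 34.4 with vehicle, 17.9-fold higher (raised fold 2.61.) Cmpk2, the nucleotide kinase gene next to Rsad2 on the chromosome, had 188 with LPS and 153 with vehicle, 1.23-fold higher. The neighbours therefore differed widely from each other in fold, although both Cmpk2 values and the vehicle value of Rsad2 were under 236. The exonuclease gene Isg20 had 401 with LPS and 237 with vehicle, 1.69-fold higher. Samhd1, which degrades deoxynucleotides, had 502 with LPS and 382 with vehicle, 1.31-fold higher.

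Of the other 7 interferon-stimulated genes, 5 were at least 2-fold higher, with a median log2 difference of 1.76. Ifi27 had 18193 with LPS and 2235 with vehicle, 8.14-fold higher. Ifi44 had 1314 with LPS and 145 with vehicle, 9.07-fold higher (raised fold 5.56), and its chromosomal neighbour Ifi44l had 348 with LPS and 59.5 with vehicle, 5.85-fold higher (raised fold 1.47.) Sp100, a component of nuclear bodies that silence viral genomes, had 11390 with LPS and 3690 with vehicle, 3.09-fold higher. Its second cluster gave 5478 with LPS and 1797 with vehicle, 3.05-fold higher, so the 2 clusters differed little. Xaf1, a partner of the apoptosis inhibitor XIAP, had 187 with LPS and 55.0 with vehicle, 3.39-fold higher, and its raised fold was 1.0. Ifi35, a partner of NMI, had 133 with LPS and 91.5 with vehicle, 1.45-fold higher. Rtp4 had 81.6 on both arrays.

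**Figure D4:**
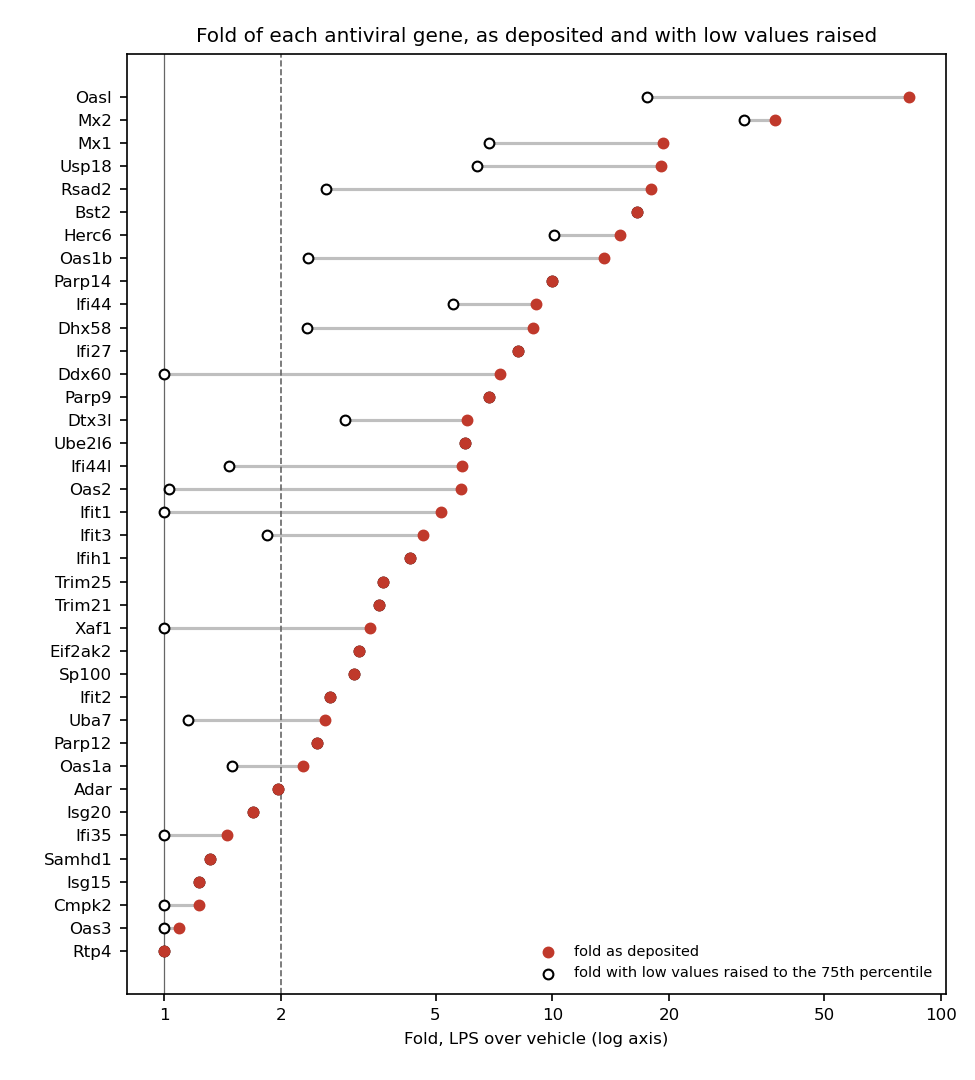
Fold of LPS over vehicle for each of the 38 members on a log axis, as deposited (red) and with intensities under 236 raised to that level (open). The dashed line marks 2-fold. Bst2, Parp14, Ifi27, Parp9 and Ube2l6 have the same value both ways, while Oasl, Rsad2, Oas1b and Ddx60 lie far apart.

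Upstream of these genes, the interferon genes themselves had the same values on both arrays. Of 11 ligand genes listed, 8 had a cluster of their own, and all 8 were identical, between 22.1 and 60.9. Identical values were also deposited for 67.2% of all clusters, among them the abundant heart muscle genes Myh7 and Ttn, and how they arose was not tested. Identity here is therefore not a measured lack of difference. Ifnb1, the gene of interferon beta, was at 29.4 and Ifng, the gene of interferon gamma, at 22.1. Ifna4 was at 54.9, Ifna16l1 at 36.3, Ifne at 29.9, Ifnk at 24.7, Ifnl1 at 60.9 and Ifnl3 at 51.4. These values are below 236, so a transcript may have been too low for the array to show, and earlier times were not sampled. The other ligand genes listed are not analysed here.

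Interferon receptor genes were above 236 on both arrays and 6 of 6 were higher with LPS, 2 of them at least 2-fold. Of all 14420 genes above the floor, 3228 were higher, and 3.69% were at least 2-fold higher. Ifngr1 had 19240 with LPS and 7234 with vehicle, 2.66-fold higher. Ifnar1 had 2814 with LPS and 1368 with vehicle, 2.06-fold higher, and its partner chain Ifnar2 had 4085 with LPS and 2462 with vehicle, 1.66-fold higher. Ifnlr1 was 1.59-fold, Ifngr2 1.42-fold and Il10rb 1.25-fold higher. Of the ISGF3 subunits, Stat2 had 4005 with LPS and 703 with vehicle, 5.70-fold higher, and Irf9 had 820 with LPS and 313 with vehicle, 2.62-fold higher. Among the kinases that carry the receptor signal, Jak2 had 50177 with LPS and 3299 with vehicle, 15.2-fold higher. Jak1 was 1.31-fold higher and Tyk2 identical at 185.

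Of 11 other genes for nucleic acid sensors, adaptors, kinases and interferon regulatory factors, 2 were at least 2-fold higher, against 3.69% of genes above the floor. Mavs, the mitochondrial adaptor of RIG-I and MDA5, was 1.09-fold higher, Tbk1 1.13-fold, Traf3 1.09-fold, Zbp1 1.11-fold and Sting1 1.17-fold. Irf3, Tlr3, Ticam1 and Cgas had identical values, which is not a measured lack of difference. Traf3, Zbp1 and Cgas were under 236 on both arrays. The 2 higher genes were the kinase gene Ikbke and Irf7, the factor that amplifies interferon responses. Ikbke had 537 with LPS and 191 with vehicle, 2.81-fold higher, and Irf7 had 48995 with LPS and 295 with vehicle, 166-fold higher. Irf7 is itself known as an interferon-inducible gene.

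**Figure D5:**
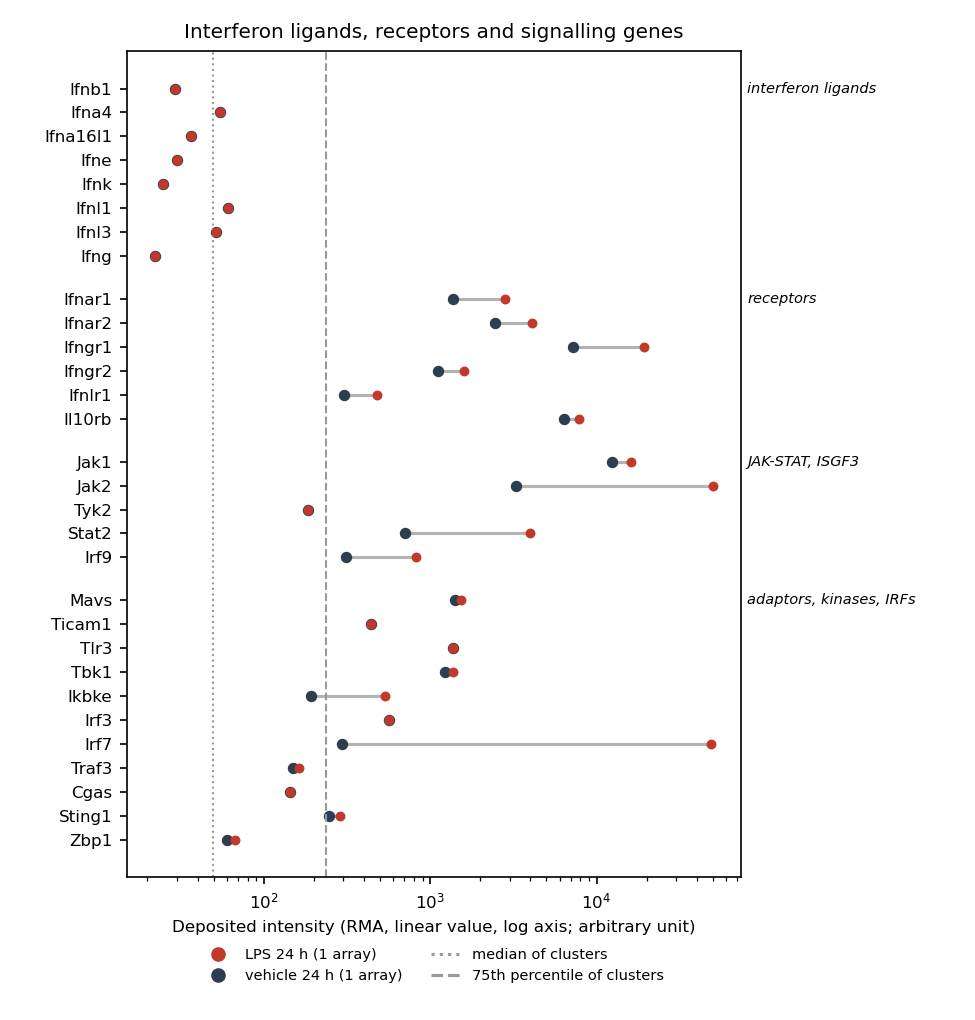
Deposited intensity of interferon ligand, receptor, JAK-STAT and sensor adaptor genes on the LPS array (red) and the vehicle array (dark), on a log axis in arbitrary units, 1 array each. The 8 ligand genes have identical values between 22.1 and 60.9, while Irf7, Jak2 and Stat2 show the widest gaps.

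Other interferon-stimulated and family genes gave a mixed picture. Of 84 pathway genes outside the list with a cluster, 17 were higher by 2-fold or more, against 2.41% of all genes with a cluster, and 0 were lower by that size. By raised fold 16 were higher, since Ifi47, at 2.07-fold, had a raised fold of 1.37. The median log2 difference was 0.07. In the OAS neighbourhood, Oas1i had 922 with LPS and 135 with vehicle, 6.81-fold higher (raised fold 3.90), and Oasl2 had 2544 with LPS and 296 with vehicle, 8.59-fold higher. Oas1d, Oas1e, Oas1f and Oas1h were identical on both arrays and at 68.0 or lower. Of 17 other antiviral genes, 7 were at least 2-fold higher, of which the largest were Lgals9 at 6.64-fold, Apol9a at 4.98-fold, Lgals3bp at 4.23-fold and Plscr1 at 3.30-fold. The membrane proteins Ifitm1, Ifitm2 and Ifitm3, which block virus entry, were at log2 differences of -0.19, 0.07 and 0.46.

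The cultures held markers of more than 1 cell type. All 11 cardiomyocyte markers with a cluster were above 236 on both arrays and none differed 2-fold, with summed intensities of 1119712 with LPS and 1210879 with vehicle. Of 13 macrophage markers, 2 were at least 2-fold higher, Adgre1 at 137-fold (raised fold 37.3) and Cd14 at 3.92-fold. Lower by that size were 3, C1qb, Csf1r and Mrc1, of which C1qb was not when low values were raised (raised fold 0.666). The median log2 difference of the macrophage markers was -0.24 and 8 of 13 were lower. Their summed intensities were 37606 with LPS and 29284 with vehicle, of which Adgre1 gave 8803 with LPS and 64.4 with vehicle. Cd163 was at 31.6 on both. Of 9 fibroblast markers, 3 were higher and 3 lower by 2-fold or more. Their median log2 difference was -0.33 and 5 of 9 were lower, with sums of 642896 with LPS and 506534 with vehicle, of which Dcn gave 177435 with LPS and 13840 with vehicle. Of 7 smooth muscle and pericyte markers, 2 were higher by that size, Rgs5 (raised fold 1.55) and Kcnj8 (raised fold 1.0), neither of them by raised fold. Acta2 was lower, at a log2 difference of -1.49, and the median was -0.62, with sums of 139732 with LPS and 355991 with vehicle. Of 8 endothelial markers, 1, Kdr, was at least 2-fold higher, and 6 were under 236 on both arrays. The endothelial sums were 2598 with LPS and 1449 with vehicle, of which Kdr gave 1975 with LPS and 715 with vehicle. All 6 neutrophil markers and 5 of 6 lymphoid and plasmacytoid markers were identical and below the floor. The part of these cells in the antiviral differences was not tested, and in such bulk RNA fewer cells of a type cannot be told apart from less RNA per cell.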

How the data were processed

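RNA of the cultures was read on 2 Affymetrix arrays, 1 with LPS and 1 with vehicle. The authors used RMA and Affymetrix Expression Console 1.4.1, per the submitters' processing notes. What they deposited are intensities, taken as linear from their range; annotation version and unit are not named in the sources used here. They ran from 4.49 to 547546 with LPS and from 4.89 to 526444 with vehicle, and 67.2% of the 68842 clusters had identical values on both arrays. The number of arrays limits the precision. Log2 was taken without a pseudocount or further scaling. Genes were named from the platform table, where 23446 clusters carried 1 symbol, and 37 of 38 members matched RefSeq by Entrez ID, while Usp18 had no ID. No test was run, and genes were counted at 2-fold. Counting was tested on simulated data, and the motif search on 1 made sequence with 1 ISRE core on the printed strand. Finding of opposite-strand cores, overlapping cores, GAS and κB matches was not tested in this way. The members, role groups and comparison lists were chosen with earlier results of these data known. All members were named, and so were the interferon ligand, receptor, JAK-STAT and adaptor genes. Of each other comparison list up to 4 genes with the largest difference were named, besides genes singled out after their values were seen. Alternatives were centring, a loess trend (span 0.3), other clusters of a gene, other floors, sizes of 1.5-fold and 3-fold, raised low values and a pseudocount. Python 3.11.15, pandas 2.3.3 and statsmodels 0.14.6 were used.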

Additional observations from a re-analysis of the deposited data

How the results depend on the processing

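No array could be left out, since each group has 1. The direction of no member at least 2-fold higher was reversed under any alternative run, but raising low values or adding a pseudocount cannot reverse a direction. Centring, removal of the loess trend, the mean or the lowest cluster of a gene, and no floor left the counts at 30 higher and 0 lower. Most of these could hardly change a count. Both arrays had a median of 49.3 before centring, Sp100 alone had several clusters, and all 38 members already passed the floor. A value was called moved when it shifted by over 0.42 log2, the 84th percentile of absolute differences over genes above the floor, or a count by over 1.5 times. That tolerance stands in for a spread between replicates, which these data do not give. Low values decide the most. With low values raised to 236, the median log2 difference was 1.35 for all members, 1.22 for RNA sensors, 0.59 for OAS genes, 0.88 for IFIT genes, 2.16 for PARP genes with Dtx3l, 3.87 for MX genes and 0.56 for IFI and other genes. With 236 added as a pseudocount it was 1.37 for all members, 1.4 for RNA sensors, 0.79 for OAS genes, 1.02 for IFIT genes, 2.15 for ISGylation, 1.80 for PARP genes with Dtx3l, 3.34 for MX genes and 0.98 for IFI and other genes. With the floor at 236, fewer members entered, and the medians were 3.15 for OAS genes, 2.40 for nucleotide, nuclease and membrane effectors and 2.79 for IFI and other genes. The higher of the 2 values has to reach this floor, so a member could enter by its LPS value alone. Members low on both arrays dropped out, so these larger medians are not evidence of larger differences. Both treatments of low values left 22 members at least 2-fold higher, but not the same ones, since raising dropped Ifit3 and the pseudocount Parp12. The higher floor left 27 of the 31 members that reached it. At sizes of 1.5-fold and 3-fold, 32 and 26 members were higher and 0 lower. Among settings added after the data were seen, 31 were at least 2-fold higher with Rig1 counted, and 25 without the members whose vehicle value was below 49.3. Of the 84 pathway genes, 17 were at least 2-fold higher, 11 with the pseudocount and 9 at a size of 3-fold, also settings added later.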

Other observations

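Several members sit beside each other in the genome, and the genes next to members were read out as well, a set chosen after the data were seen. By RefSeq order of protein-coding genes, 11 of the 38 members lie next to another member, in the Ifit, Oas, Ifi44, Rsad2 and Parp14 neighbourhoods. Of 62 distinct neighbours that are not members, 41 had a cluster above the floor, and 4 of these (9.76%) were at least 2-fold higher with LPS, against 3.69% of all genes above the floor. Serping1, the C1 inhibitor of complement, next to Ube2l6, had 28813 with LPS and 2408 with vehicle, 12-fold higher. Oasl2, next to Oasl, was 8.59-fold higher. Ifi27l2b, a paralog next to Ifi27, had 880 with LPS and 179 with vehicle, 4.91-fold higher. Agrn, the proteoglycan agrin, next to Isg15, had 814 with LPS and 337 with vehicle, 2.42-fold higher, and thus differed more than Isg15 itself did. At least 2-fold lower were 2 neighbours, where 2.63% of all genes above the floor were, Rbl1 beside Samhd1 at a log2 difference of -1.22 and Acan beside Isg20 at -1.01, with both Acan values under 236.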
